A study of Mus musculus with 21 samples.

Results

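The DNA methylation machinery examined here is 10 genes, chosen by name, of the 10928 annotated mouse genes that had at least 1 transcript in the merged long-read annotation. They are the methyltransferases Dnmt1, Dnmt3a and Dnmt3b with their cofactor Dnmt3l, the dioxygenases Tet1, Tet2 and Tet3, and the factors Uhrf1, Dppa3 and Zfp57. All 10 had a merged transcript, 25 of 22612 in all, and all 10 passed the filter on low values, as did 10009 of the 10928 genes. A merged transcript was given to a gene by same-strand exon overlap with the GENCODE vM21 annotation (mm10), and the gene value is the summed TPM (a transcript's share of its library, corrected for its length and scaled to a fixed total) of its transcripts.

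Amplified cDNA (Smart-seq2) from pooled gametes and preimplantation embryos had been sequenced at 7 stages, with short reads in 14 libraries, 2 per stage, and with PacBio long reads in 7 pools, 1 per stage. The males are labelled DBA/2J, whereas the collection protocol names DBA/2N, and the females were labelled C57/BL6J. Sperm came from the epididymis of the males, and oocytes from superovulated females, 3 to 5 weeks old, at 20 h after hCG (human chorionic gonadotropin, the ovulation trigger). The embryos of matings between these strains were lysed at 24 to 26 h (1-cell), 46 to 48 h (2-cell), 54 to 58 h (4-cell), 68 to 70 h (8-cell) and 94 to 96 h (blastocyst), after culture in KSOM medium. No group carried a mutation or a treatment beyond superovulation and culture. Each library is a pool of many cells, so that fewer cells of a type and less RNA per cell cannot be told apart, and a TPM can fall because other transcripts of the pool increased. The 6 comparisons were each stage from oocyte to blastocyst with the next, and oocyte with blastocyst. Their p-values rest on the spread between the 2 pools of a stage. That spread was estimated once per gene over the 12 libraries from oocyte to blastocyst, so it is not that of the compared stages alone.

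Methylation of cytosine in CpG dinucleotides is copied to the new DNA strand by DNMT1, which UHRF1 brings to half-methylated sites, and is laid down on unmethylated DNA by DNMT3A and DNMT3B, which DNMT3L stimulates without being an enzyme itself. TET dioxygenases oxidise 5-methylcytosine, the first step of its active removal. Most methylation inherited from sperm and oocyte is lost before implantation, while DPPA3 (also called STELLA) shields the maternal genome and ZFP57 keeps methylation at imprinted regions.

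Of the 14 libraries, the 4-cell pair agreed best over the genes tested (r = 0.979 on log2(TPM + 1), across genes) and the 2-cell pair least (r = 0.679), with a median SD between the 2 libraries of 0.187 and 1.04 on that scale. The sperm libraries carried the 6 sperm markers at summed levels of 14026 and 20769.6 TPM but also 4 leukocyte markers at 6513 and 1615 TPM, against at most 14.3 TPM in any other library, and epididymal epithelium markers (2 of 4 with a transcript) at 2014 and 338 TPM. The 7 oocyte markers summed to 5152 and 16686 TPM in oocytes, 2548 and 2012 in 1-cell embryos, 107 and 1259 in the 2-cell replicates 1 and 2, 132 and 137 in 4-cell embryos and at most 16.6 TPM later. The 7 blastocyst markers summed to 10208 and 37379 TPM in blastocysts. The 6 markers of 2-cell embryos summed to 17.9 TPM in 2-cell replicate 1 and to 354 TPM in replicate 2. Of 7 cumulus cell markers, 2 had a transcript. They summed to at most 0.242 TPM in oocytes and 1-cell embryos, but to 44.9 and 50.4 TPM in 2-cell and 99.3 and 107 TPM in 4-cell embryos, to at most 34.7 TPM in 8-cell embryos and to 8.89 and 5.81 TPM in blastocysts. Nearly all of the later signal was Amhr2.

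Some members are transcribed from more than 1 start, and the windows around those starts are shown here because the merged transcripts began at only some of them. RefSeq (GRCm38.p6, the assembly behind mm10) gave windows of 300 bases, 250 before and 50 after an annotated start, for 9 of the 10 genes, 18 in all with 3 each for Dnmt1, Dnmt3a and Dnmt3l, and none for Dppa3. A pair is printed for each of these 3 genes. Each window is printed 5′ to 3′ on the gene's strand with the CG dinucleotides in capitals. The Dnmt1 windows are at chr9:20959839-20960138 and chr9:20952930-20953229 (minus strand), those of Dnmt3a at chr12:3891494-3891793 and chr12:3806910-3807209 (plus strand) and those of Dnmt3l at chr10:78049592-78049891 and chr10:78055085-78055384 (plus strand).
Dnmt1, distal start: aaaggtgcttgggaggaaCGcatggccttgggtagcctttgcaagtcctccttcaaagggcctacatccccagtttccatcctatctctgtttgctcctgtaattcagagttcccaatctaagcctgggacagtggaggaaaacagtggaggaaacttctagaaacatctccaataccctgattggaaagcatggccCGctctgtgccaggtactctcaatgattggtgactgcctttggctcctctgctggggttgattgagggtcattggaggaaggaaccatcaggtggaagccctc
Dnmt1, proximal start: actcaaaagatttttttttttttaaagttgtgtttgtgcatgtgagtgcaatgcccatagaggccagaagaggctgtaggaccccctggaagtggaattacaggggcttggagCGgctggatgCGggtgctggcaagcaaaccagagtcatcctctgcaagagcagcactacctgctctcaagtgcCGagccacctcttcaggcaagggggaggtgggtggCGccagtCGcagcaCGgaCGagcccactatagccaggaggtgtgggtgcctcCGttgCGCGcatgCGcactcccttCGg
Dnmt3a, internal start: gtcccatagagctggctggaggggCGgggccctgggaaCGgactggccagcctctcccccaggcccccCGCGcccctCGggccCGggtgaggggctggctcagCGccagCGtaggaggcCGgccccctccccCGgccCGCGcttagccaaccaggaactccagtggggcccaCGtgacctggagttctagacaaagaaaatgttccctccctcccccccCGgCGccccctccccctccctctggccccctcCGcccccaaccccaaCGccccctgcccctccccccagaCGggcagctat
Dnmt3a, distal start: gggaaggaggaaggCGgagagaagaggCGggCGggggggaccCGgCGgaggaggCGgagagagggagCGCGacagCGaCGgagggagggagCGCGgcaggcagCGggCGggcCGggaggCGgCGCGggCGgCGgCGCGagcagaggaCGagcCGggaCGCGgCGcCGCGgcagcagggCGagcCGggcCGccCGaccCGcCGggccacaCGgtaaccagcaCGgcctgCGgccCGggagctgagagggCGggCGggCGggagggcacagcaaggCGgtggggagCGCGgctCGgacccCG
Dnmt3l, start of the 13-exon form: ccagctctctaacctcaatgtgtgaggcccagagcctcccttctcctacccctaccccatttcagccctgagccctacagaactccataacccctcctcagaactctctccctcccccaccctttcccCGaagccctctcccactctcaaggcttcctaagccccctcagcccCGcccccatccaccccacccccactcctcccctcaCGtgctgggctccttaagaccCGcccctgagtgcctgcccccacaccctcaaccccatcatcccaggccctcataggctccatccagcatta
Dnmt3l, internal start: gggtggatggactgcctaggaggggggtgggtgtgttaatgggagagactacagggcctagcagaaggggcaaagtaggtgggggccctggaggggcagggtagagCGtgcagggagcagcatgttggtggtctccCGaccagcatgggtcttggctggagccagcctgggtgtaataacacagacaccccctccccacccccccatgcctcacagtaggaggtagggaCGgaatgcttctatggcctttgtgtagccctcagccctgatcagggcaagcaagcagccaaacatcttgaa

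The distal Dnmt1 window, 17 bases from the start of the merged oocyte transcripts, held 2 CG, a count that 85.9% of the 32817 RefSeq windows reach or exceed, whereas the proximal window held 12 CG (39.6%). A further Dnmt1 window, around a start at 20952623, held 33 CG (8.57%). The merged Dnmt3a transcripts began 80 bases downstream of the annotated start in the internal window, beyond the window's end. That window held 18 CG (29.7%). No merged transcript began near the distal window, with 47 CG (1.44%). Both printed Dnmt3l windows were poor in CG, with 4 (68.6%) and 3 (76.7%). The windows not printed for these genes held 46 CG (1.65%) for Dnmt3a (chr12:3806730-3807029) and 6 CG (56.4%) for Dnmt3l (chr10:78042037-78042336). The GC-box letters GGGCGG, searched on both strands and always holding a CG, occurred 2 times in the internal Dnmt3a window, 2 times in the window of the 13-exon Dnmt3l form and 7 times in the distal Dnmt3a window. They are present in 35.6% of all windows. TATAAA, searched on both strands, was in none of the 6 windows and is in 13.6% of all windows. The E-box letters CANNTG, the same on both strands, are in 72.3% of all windows and were absent from the internal Dnmt3l and the distal Dnmt3a window. These matches describe the letters only.

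Dnmt1, the maintenance methyltransferase, was highest in the 1-cell embryo and fell from there to the 2-cell stage. Its levels were 59.8 and 39.6 TPM in the oocytes, 231 and 159.6 in 1-cell embryos, 19.7 and 27.5 in 2-cell embryos, 22.5 and 25.8 in 4-cell embryos, 10.7 and 14.8 in 8-cell embryos and 22.4 and 50.7 in blastocysts. Both 1-cell libraries lay above every other library, and the 8-cell pair lay below the other oocyte and embryo pairs. From the 1-cell to the 2-cell stage Dnmt1 fell by 2.99 on the log2(TPM + 1) scale (SE 0.67, limma adjusted p = 0.00442). From the oocyte to the 1-cell stage the change was 1.96 (SE 0.67, adjusted p = 0.310), and from oocyte to blastocyst -0.51 (adjusted p = 0.538).

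The Dnmt1 value is the sum of 4 partial transcripts on chromosome 9, of which the longest is 31.1% as long as the longest annotated Dnmt1 transcript. TCONS_00021208 and TCONS_00021209 begin at 20959871, in the first exon of Dnmt1-202 (20959733 to 20959888), the annotated form of 1501 codons that starts upstream of the 1620-codon form Dnmt1-201 and corresponds to the start known from oocytes. Their sum was 40.3 and 8.69 TPM in the oocytes, 55.9 and 79.5 in 1-cell embryos, 1.53 and 4.77 in 2-cell embryos, and between 2.07 and 4.51 in the 6 libraries from the 4-cell stage to the blastocyst. They made up 67.4% and 22.0% of the Dnmt1 value in the oocytes, 24.2% and 49.8% in 1-cell embryos and 20.1% and 4.09% in blastocysts. These 2 transcripts cover exons 1 to 10, and the other 2 cover exons 20 to 23 and the last 9 exons. The same RNA can thus count in more than 1 of the pieces, so the shares do not measure how much Dnmt1 began at this start. From the 1-cell to the 2-cell stage TCONS_00021208 fell by 4.22 (SE 0.83, adjusted p = 0.00343) and TCONS_00021209 by 3.60 (SE 0.71, adjusted p = 0.00345). The oocyte long-read pool held 1 Dnmt1 transcript of 2 that began in this exon, the 1-cell pool 3 of 5, and the 2-cell and blastocyst pools none of 1 each.

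The 2 transcripts from this first exon differ by 3 bases at 1 splice acceptor, at the 5′ end of their exon 5 (chr9:20940552-20940554, minus strand), and are otherwise identical. The letters around the junction, with the 3 extra bases in capitals, were read from the GENCODE vM21 transcripts and are those of the annotated Dnmt1-201, which includes them, and of Dnmt1-202, which does not.
TCONS_00021208: gtgacaccctttCAGttgaaacttcac
TCONS_00021209: gtgacaccctttttgaaacttcac
TCONS_00021208, with the extra bases, was at 24.3 and 5.11 TPM in the oocytes and at 32.2 and 44.6 TPM in 1-cell embryos, and TCONS_00021209 at 15.9 and 3.58 TPM and at 23.7 and 35.0 TPM. The longer form was thus the higher of the pair in each of these 4 libraries. Of the other Dnmt1 transcripts, TCONS_00021206 covers the last 9 exons and carried 79.7% of the blastocyst value, and TCONS_00021207 covers exons 20 to 23 and fell from 64.5 and 60.1 TPM at the 1-cell stage to 10.2 and 6.84 TPM at the 2-cell stage (log2 change -2.75, SE 0.66, adjusted p = 0.00916), a call lost without either 1-cell library (adjusted p = 0.0535 and 0.051 for TCONS_00021207).

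**Figure D1:**
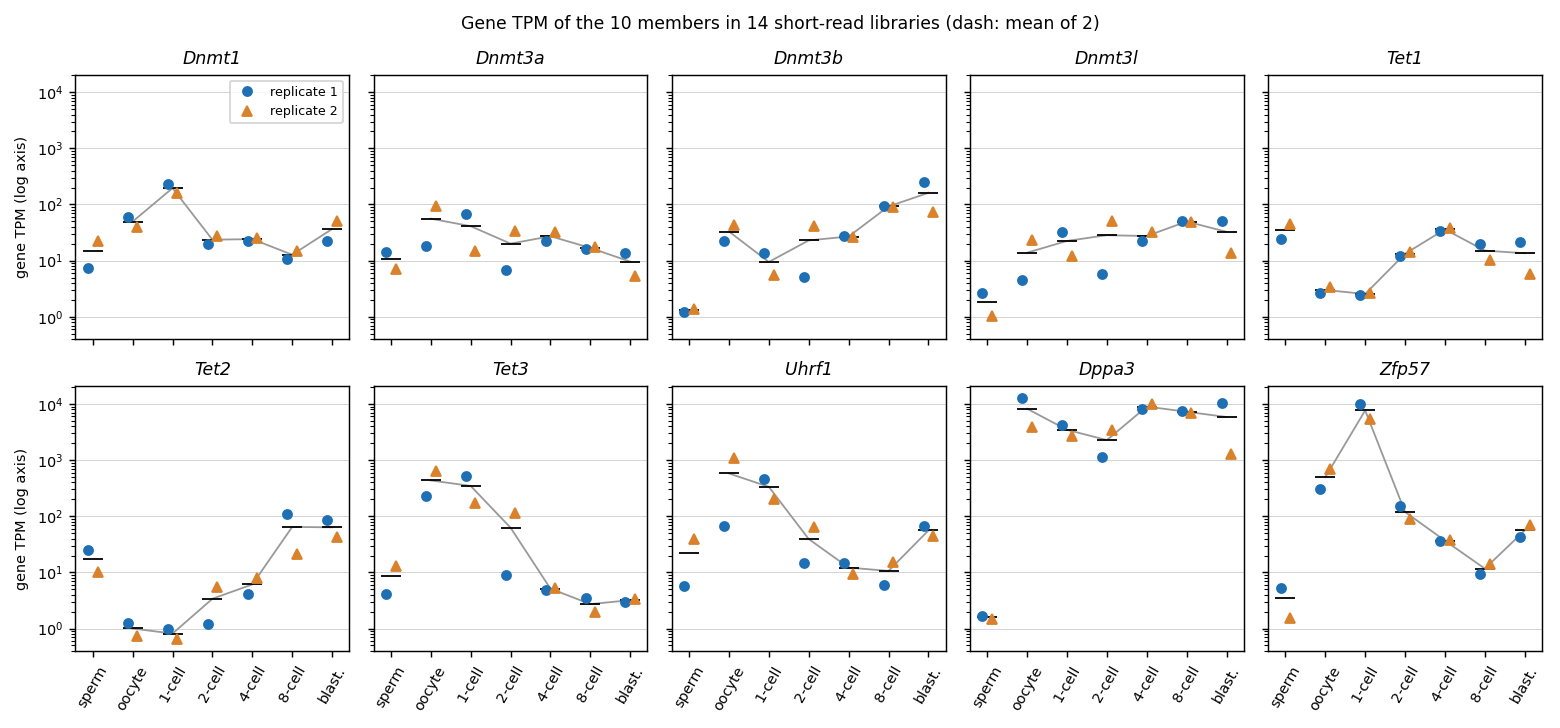
Gene TPM of the 10 members in each of the 14 short-read libraries, on a log axis, with circles for replicate 1, triangles for replicate 2, a dash at the mean of 2 and a grey line through the means from oocyte to blastocyst. Zfp57 peaks in the 1-cell embryo at 9859 and 5473 TPM, Tet3 and Uhrf1 are high in oocyte and 1-cell embryo, and Tet2 is high in the 8-cell embryo and blastocyst.

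The de novo enzymes and their cofactor did not pass the threshold as gene sums in any of the 6 comparisons. Dnmt3a was at 18.4 and 93.4 TPM in the oocytes, 67.3 and 14.8 in 1-cell embryos, 6.76 and 33.4 in 2-cell embryos, 22.2 and 32.3 in 4-cell embryos, 16.4 and 17.2 in 8-cell embryos and 13.9 and 5.28 in blastocysts. The 2 oocyte libraries stood far apart, as did the 1-cell and the 2-cell pair, and the blastocyst pair lay below the oocyte pair (log2 change -2.14, SE 0.97, adjusted p = 0.0756). Both Dnmt3a transcripts begin at 3891824 on chromosome 12, that is, at the internal start, which leads to the annotated 689-codon form rather than the 908-codon form of Dnmt3a-201. TCONS_00004196 has the 18 exons of Dnmt3a-205, and TCONS_00004197 has 12 exons and shares 10 introns with it.

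The balance of these Dnmt3a forms differed by stage. The 18-exon form carried 98.5% of the mean Dnmt3a value in oocytes (16.7 and 93.4 TPM) and 90.7% in 1-cell embryos (62.6 and 11.9 TPM), whereas the 12-exon form carried 76.5% in 4-cell embryos (17.0 and 24.7 TPM, against 5.22 and 7.57 TPM). From oocyte to blastocyst the 18-exon form fell by 2.63 (SE 0.95, adjusted p = 0.0397), a call that was lost in 11 of 20 alternative fits, among them without oocyte replicate 2 (log2 change -1.42, adjusted p = 0.301 for TCONS_00004196). Transcripts of 18 and 12 exons that begin at this start were read in the oocyte pool, and the Dnmt3a transcripts of the 1-cell, 8-cell and blastocyst pools all began further downstream.

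Dnmt3b was at 22.1 and 44.0 TPM in the oocytes, 13.4 and 5.51 in 1-cell embryos, 5.20 and 40.7 in 2-cell embryos, 27.4 and 26.4 in 4-cell embryos, 92.6 and 91.8 in 8-cell embryos and 248 and 74.7 in blastocysts. The 8-cell pair lay above all libraries of the 5 other stages before the blastocyst, and the 2-cell libraries lay on either side of the 4-cell levels. The change from the 4-cell to the 8-cell stage was 1.74 (SE 0.91, limma adjusted p = 0.380). It passed the threshold in 2 of 21 alternatives. These were the fit on only these 4 libraries (limma adjusted p = 0.00996) and the spread weighted by stage (limma adjusted p = 0.00129). From oocyte to blastocyst the gene changed by 2.09 (SE 0.91, adjusted p = 0.0653). Its transcript in the last exon, TCONS_00011500, rose between these stages, from 7.16 and 1.497 TPM to 60.7 and 15.4 TPM (log2 change 2.82, SE 0.90, limma adjusted p = 0.0234). This call was lost without oocyte replicate 2 or blastocyst replicate 1, and when the 4 libraries of both stages were fitted alone (limma adjusted p = 0.112). The other transcript, TCONS_00011499, carried 86.9% of the mean in oocytes and 76.4% in blastocysts. It did not pass in this comparison (log2 change 2.02, SE 0.98, limma adjusted p = 0.116). The 2 Dnmt3b transcripts, on chromosome 2, were read in the blastocyst pool alone and cover exons near the 3′ end, so the start of the gene is not resolved here.

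Dnmt3l, the cofactor, was measured as different forms at different stages. The gene was at 4.59 and 23.1 TPM in the oocytes, 32.6 and 12.3 in 1-cell embryos, 5.88 and 50.9 in 2-cell embryos, 22.4 and 32.5 in 4-cell embryos, 51.0 and 48.4 in 8-cell embryos and 51.6 and 13.6 in blastocysts, and none of these neighbouring stages differed past the threshold. The 13-exon transcript TCONS_00001706 (chr10:78049842-78063618), which matches the 421-codon Dnmt3l-201, carried 100% of the mean in oocytes and 99.6% in 1-cell embryos, but 6.48% in 4-cell and 7.75% in 8-cell embryos, and 58.1% in blastocysts. The remainder came from TCONS_00001707 and TCONS_00001708, with 6 and 5 exons from starts at 78055579 and 78055584, whose intron chains match the annotated 126-codon forms Dnmt3l-206 and Dnmt3l-203.

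Together the short Dnmt3l forms were at 6e-06 and 0 TPM in the oocytes, 0.176 and 0 in 1-cell embryos, 4.39 and 28.7 in 2-cell embryos, 20.5 and 30.8 in 4-cell embryos, 47.9 and 43.8 in 8-cell embryos and 19.3 and 8.03 in blastocysts. All 8 libraries from the 2-cell stage on lay above all 4 oocyte and 1-cell libraries. TCONS_00001707 rose by 3.26 from the 1-cell to the 2-cell stage (SE 0.74, adjusted p = 0.00709) and by 2.84 from oocyte to blastocyst (SE 0.74, adjusted p = 0.00847). TCONS_00001708 rose by 2.89 from oocyte to blastocyst (SE 0.90, adjusted p = 0.0212). The first of these calls was lost without 1-cell replicate 2, both oocyte to blastocyst calls were lost without blastocyst replicate 1, and that of TCONS_00001708 also without either oocyte library. The 13-exon form was read in the blastocyst pool, the oocyte pool held no Dnmt3l transcript, and the 1 transcript of the 1-cell pool had 5 exons and began at 78055034, so the oocyte TPM of the 13-exon form rests on short reads alone. Over the transcripts of the 1-cell pool alone, that 5-exon Dnmt3l transcript was at 25.5 and 10.7 TPM.

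**Figure D2:**
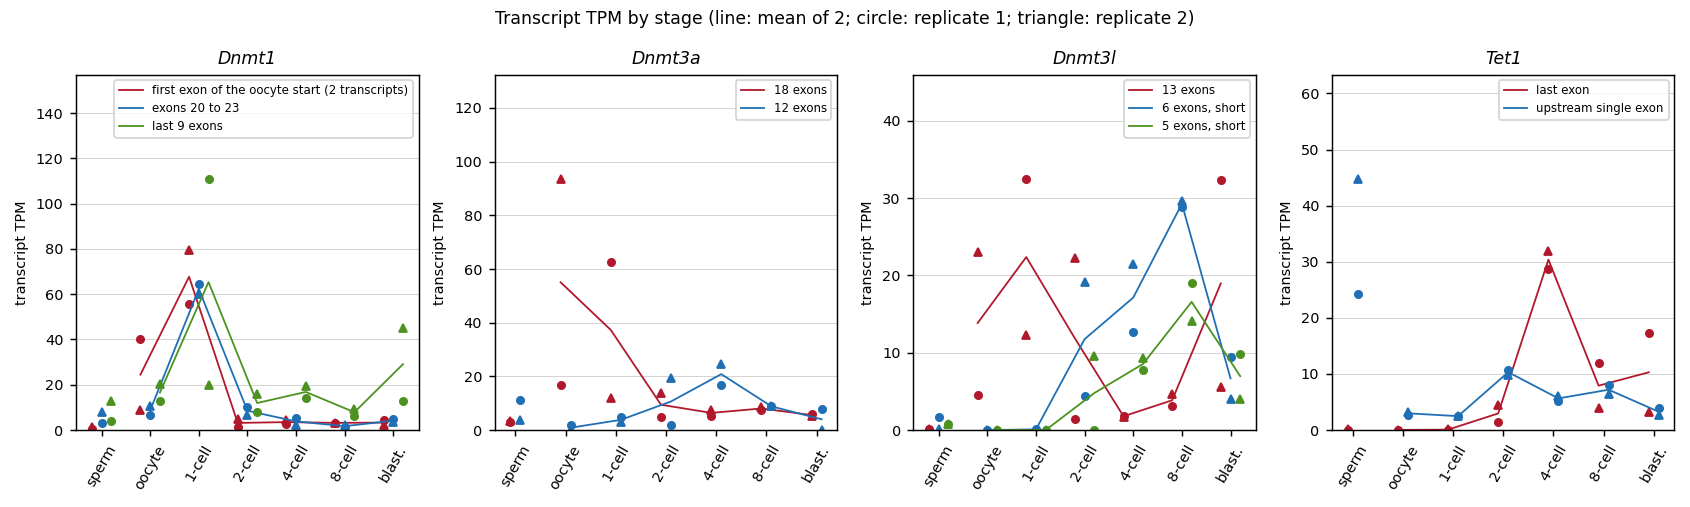
Transcript TPM of Dnmt1, Dnmt3a, Dnmt3l and Tet1 by stage, on linear axes, with circles for replicate 1, triangles for replicate 2 and a line through the means from oocyte to blastocyst. The Dnmt1 transcripts of the oocyte start are at 55.9 and 79.5 TPM in 1-cell embryos and at 4.77 TPM or less from the 2-cell stage on, and the short Dnmt3l forms lie near 0 in oocyte and 1-cell embryo and lead in 4-cell and 8-cell embryos.

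By the stage means, Tet3 was highest in the oocyte and 1-cell embryo, Tet1 in the 4-cell embryo and Tet2 in the 8-cell embryo and blastocyst. The steps of Tet1 into and out of the 4-cell stage did not pass the threshold (adjusted p = 0.240 and 0.425), and its 4-cell pair lay between the sperm libraries. Tet3, the dioxygenase known to act in the zygote, was at 231 and 639 TPM in the oocytes, 523 and 170.1 in 1-cell embryos, 8.84 and 116 in 2-cell embryos, 4.89 and 5.39 in 4-cell embryos, 3.49 and 1.96 in 8-cell embryos and 3.02 and 3.40 in blastocysts. The 4 oocyte and 1-cell libraries lay above all others of the 14, and the 2-cell libraries stood far apart. From oocyte to blastocyst Tet3 fell by 6.52 (SE 1.00, adjusted p = 0.000123), which passed in all 20 alternatives that gave a value. From the 1-cell to the 2-cell stage it fell by 3.14 (SE 1.00, adjusted p = 0.0274), a call lost without 1-cell replicate 1 (log2 change -2.33, adjusted p = 0.199) or 2-cell replicate 1 (-1.35, adjusted p = 0.241). Each of the 3 single-exon Tet3 transcripts on chromosome 6, 2 in the last exon and 1 in exon 3 of Tet3-202, fell from oocyte to blastocyst (log2 changes -6.28, -5.88 and -5.26 for TCONS_00017439, TCONS_00017440 and TCONS_00017441).

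Tet1 was at 2.68 and 3.33 TPM in the oocytes, 2.48 and 2.62 in 1-cell embryos, 12.2 and 14.3 in 2-cell embryos, 34.0 and 38.0 in 4-cell embryos, 19.8 and 10.4 in 8-cell embryos and 21.2 and 5.85 in blastocysts. All 8 libraries from the 2-cell stage on lay above the 4 before it. The rise from the 1-cell to the 2-cell stage was 2.00 (SE 0.71, adjusted p = 0.0424), where the median of all genes tested was 0.72. The call was lost in 15 of 20 alternatives, 9 of them with 1 library left out, and the Tet1 change was 0.72 (adjusted p = 0.427) after quantile normalization.

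Which part of Tet1 was measured also differed by stage. TCONS_00002187, 1303 bases of the last exon (chr10:62804573-62805875), was at 0 and 0.0501 TPM in the oocytes, 0 and 0.140 in 1-cell embryos, 1.46 and 4.46 in 2-cell embryos, 28.8 and 32.0 in 4-cell embryos, 11.9 and 3.94 in 8-cell embryos and 17.3 and 3.25 in blastocysts. It rose by 3.11 from oocyte to blastocyst (SE 0.79, adjusted p = 0.00738), a call lost without blastocyst replicate 1. From the 1-cell to the 2-cell stage the change of TCONS_00002187 was 1.78 (SE 0.79, limma adjusted p = 0.111). TCONS_00002188 (chr10:62901286-62902095) is a single exon of 810 bases of which 61 bases, 7.53%, overlap an annotated Tet1 exon. It made up 99.2% of the mean Tet1 value in oocytes, 77.7% in 2-cell and 15.7% in 4-cell embryos, so the early Tet1 values come mostly from a transcript whose tie to the gene rests on that overlap. From the 1-cell to the 2-cell stage TCONS_00002188 rose by 1.70 (SE 0.59, limma adjusted p = 0.0472), a call lost in 14 of 20 alternatives. In 4-cell embryos it was at 5.27 and 6.02 TPM over the merged transcripts but at 173 and 260.1 TPM when the authors quantified over the 4-cell transcripts alone, so the Tet1 level there depends on the set of transcripts.

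Tet2 rose by 4.94 from oocyte to blastocyst (SE 0.83, adjusted p = 0.000240), which passed in all 20 alternatives that gave a value. It was at 1.26 and 0.744 TPM in the oocytes, 0.977 and 0.652 in 1-cell embryos, 1.21 and 5.58 in 2-cell embryos, 4.17 and 8.06 in 4-cell embryos, 108 and 21.5 in 8-cell embryos and 84.4 and 42.7 in blastocysts. The 4 libraries of the 8-cell and blastocyst stages lay above the 8 libraries from oocyte to 4-cell. The step from the 4-cell to the 8-cell stage was 2.85 (SE 0.83, limma adjusted p = 0.103). It passed the threshold in 5 of 20 alternatives, among them without either 2-cell library and with the spread weighted by stage (limma adjusted p = 0.000142). In the other 15 it did not pass, and the change ran from 1.72 to 3.99 with 1 library left out. The value rests on 1 transcript, TCONS_00013546, 713 bases in the last exon (chr3:133463679-133464391) that was read in the blastocyst pool and is 7.77% as long as the longest annotated form.

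Uhrf1, which recognises half-methylated DNA, was high in oocyte and 1-cell embryo with a wide spread. Its levels were 66.0 and 1091 TPM in the oocytes, 463 and 206 in 1-cell embryos, 14.5 and 64.1 in 2-cell embryos, 14.9 and 9.48 in 4-cell embryos, 6.08 and 15.2 in 8-cell embryos and 68.2 and 43.6 in blastocysts. The 4 oocyte and 1-cell libraries were not all above the blastocyst pair. Oocyte replicate 1 lay just under blastocyst replicate 1. From the 1-cell to the 2-cell stage Uhrf1 fell by 3.28 (SE 1.11, adjusted p = 0.0352). This call was lost in 8 of 21 alternatives, among them without 1-cell replicate 1 (log2 change -2.70, adjusted p = 0.194), 1-cell replicate 2 (-3.87, adjusted p = 0.0803), 2-cell replicate 1 (-2.25, adjusted p = 0.174) and either blastocyst library (-3.28, adjusted p = 0.0553 for both). From the 8-cell stage to the blastocyst the change was 2.38 (SE 1.11, adjusted p = 0.346). The 2 Uhrf1 transcripts, on chromosome 17, hold exons 1 and 2 (TCONS_00008798, 145 bases) and exons 10 to 17 (TCONS_00008799, 1955 bases). The short TCONS_00008798 carried 69.1% of the mean Uhrf1 value in oocytes and 77.4% in 1-cell embryos. From the 1-cell to the 2-cell stage it fell by 3.99 (SE 1.26, limma adjusted p = 0.0331), a call lost in 9 of 20 alternatives. TCONS_00008799 did not pass in that step (log2 change -1.95, SE 1.15, limma adjusted p = 0.228).

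Dppa3, a maternal factor that is also a marker of pluripotent and germ cells, lay between 1146 and 12586 TPM in all 12 oocyte and embryo libraries. It was at 12586 and 3851 TPM in the oocytes, 4258 and 2668 in 1-cell embryos, 1146 and 3398 in 2-cell embryos, 8192 and 9783 in 4-cell embryos, 7471 and 7040.1 in 8-cell embryos and 10428 and 1292 in blastocysts. The 4-cell and 8-cell pairs were tight, whereas the blastocyst libraries stood far apart. No comparison passed the threshold. The largest of the 6 was the change from the 2-cell to the 4-cell stage (2.18, SE 1.09, adjusted p = 0.231), and the oocyte to blastocyst value was -0.92 (SE 1.09, adjusted p = 0.494). Both merged Dppa3 transcripts begin at 122626420 on chromosome 6, 10 bases from the annotated start of Dppa3-201. Neither has exactly the introns of that 4-exon form. TCONS_00017048, with 5 exons, holds its 3 introns and an additional intron, and TCONS_00017047, with 3 exons, shares 1 intron with it. The 5-exon form TCONS_00017048 carried between 60.9% and 67.2% of the mean at every stage. A 5-exon Dppa3 transcript was read in the 8-cell pool alone. Over the 8-cell transcripts alone it was at 68.6 and 15.1 TPM, and a 4-exon one of 910 bases at 3449 and 3007 TPM. The share of the 5-exon form thus depends on the set of transcripts.

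Zfp57, the zinc finger protein that binds methylated imprinting control regions, had the largest log2 change between neighbouring stages among the 10. It was at 300.5 and 691 TPM in the oocytes, 9859 and 5473 in 1-cell embryos, 149 and 89.2 in 2-cell embryos, 36.2 and 37.4 in 4-cell embryos, 9.39 and 13.99 in 8-cell embryos and 43.0 and 69.0 in blastocysts. No 2 stages that are neighbours in the order of their means overlapped. From oocyte to the 1-cell stage it rose by 4.01 (SE 0.73, adjusted p = 0.0398), and this call was lost in 14 of 21 alternatives, with adjusted p up to 0.476. It was lost without any 1 of the 4 libraries compared (log2 changes from 3.41 to 4.61, adjusted p from 0.122 to 0.359) and without any 1 of the 6 libraries from the 4-cell stage to the blastocyst. From the 1-cell to the 2-cell stage Zfp57 fell by 5.98 (SE 0.73, adjusted p = 0.000121) and from oocyte to blastocyst it fell by 3.04 (SE 0.73, adjusted p = 0.00292), and both passed in all 21 alternatives. From the 8-cell stage to the blastocyst the change was 2.15 (SE 0.73, adjusted p = 0.147).

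The Zfp57 form TCONS_00008729, whose introns match Zfp57-201 and its 421 codons (chr17:37002542-37010629), carried 82.0% of the mean in oocytes and 83.4% in 1-cell embryos. It was at 245 and 568 TPM in the oocytes and then at 8256 and 4526 TPM in 1-cell embryos, and fell by 6.08 to the 2-cell stage (SE 0.79, adjusted p = 0.000646). TCONS_00008730, whose exon 4 begins 1 base later, moved with it (rise of 3.91 from oocyte to 1-cell, adjusted p = 0.0203, log2 change of -5.76 to the 2-cell stage, adjusted p = 0.000749), and its rise was lost in 8 of 20 alternatives. TCONS_00008727 carried at most 7.99% of the mean Zfp57 value at any stage. TCONS_00008728 carried 12.8% in blastocysts and 61.3% in sperm, where it was at 4.25 and 0 TPM. Zfp57 transcripts were read in the long-read pools of 6 of the 7 stages, all but sperm.

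From the 1-cell to the 2-cell embryo 5 of the 10 members passed the test, 4 lower (Dnmt1, Tet3, Uhrf1 and Zfp57) and 1 higher (Tet1), where 32.3% of the 10009 genes passed, 6.19% lower and 26.1% higher. The median change of the members was -0.89 and that of all genes 0.72. Only Zfp57 was still called when the 4 libraries of these stages were fitted alone, and also when the spread was weighted by stage. The 2-cell pair had the widest spread of the stages. On data simulated with the spread of each stage, the fit made false calls in this step. The 7 oocyte markers, each at 1 TPM or more in at least 1 of the 2-cell libraries, were higher in 2-cell replicate 2 than in replicate 1 (1259 and 107 TPM summed). Of the members, Tet3, Uhrf1, Dnmt3a, Dnmt3b, Dnmt3l, Tet2 and Dppa3 were higher in replicate 2 too, by more than Dnmt1 and Tet1 on the log2 scale. Zfp57 was lower there. The markers of 2-cell embryos (354 and 17.9 TPM summed) and of blastocysts (77.0 and 15.0 TPM summed) were also higher in 2-cell replicate 2 than in replicate 1. The part of oocyte RNA in this result was not tested. At the transcript level 11 of the 25 member transcripts passed, 9 lower and 2 higher, against 28.0% of 20250 transcripts, 5.11% lower and 22.9% higher.

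In the other comparisons few members were called. From oocyte to 1-cell 1 of 10 passed (Zfp57), against 0.38% of all genes, and 3 transcripts, all of Zfp57, against 2.0% of all transcripts. From the 2-cell to the 4-cell, from the 4-cell to the 8-cell and from the 8-cell stage to the blastocyst none of the 10 passed limma's adjusted threshold, where 3.24%, 1.68% and 3.0% of all genes did, and 2, 2 and 2 of the 10 had an unadjusted p under 0.05. None of the 25 transcripts passed limma's adjusted threshold in these steps either, against 2.63%, 3.13% and 2.11%, and 3, 3 and 2 of them had an unadjusted p under 0.05. From oocyte to blastocyst 3 of 10 passed, Tet2 higher and Tet3 and Zfp57 lower, against 53.4% of all genes, 35.4% higher and 18.0% lower, and 12 of 25 transcripts, 5 higher and 7 lower, against 43.0%, 26.7% higher and 16.3% lower. The median of all genes was 0.82 in this comparison and that of the members -0.72.

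**Figure D3:**
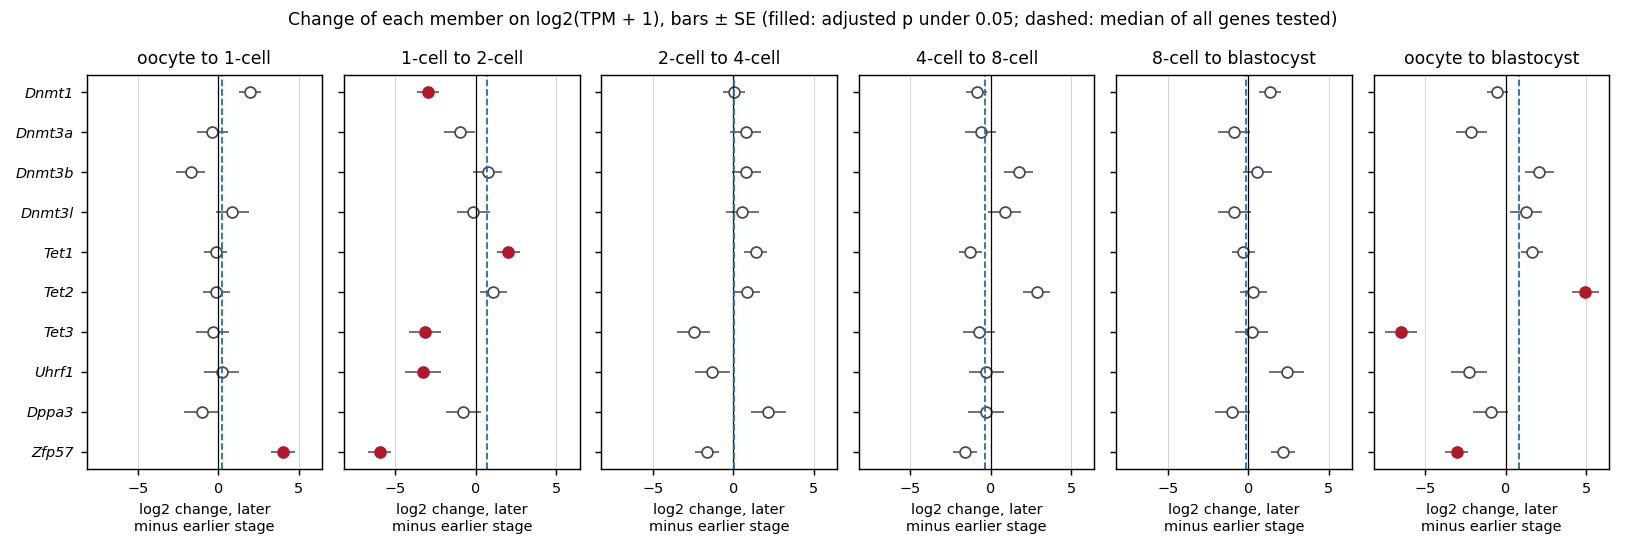
Log2 change of each member on the log2(TPM + 1) scale in the 6 comparisons, later minus earlier stage, with bars of ± 1 SE, filled points past an adjusted p of 0.05 and a dashed line at the median of all genes tested. The filled points are Zfp57 from oocyte to 1-cell, 5 members from the 1-cell to the 2-cell stage and Tet2, Tet3 and Zfp57 from oocyte to blastocyst.

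In sperm all members had values, and these are given as a description. Tet1 was at 24.4 and 44.9 TPM, 99.6% of it from the upstream single exon TCONS_00002188, and the last-exon transcript was at 0.0942 and 0.174 TPM. Tet2 was at 24.9 and 9.98, Uhrf1 at 5.81 and 38.8, Dnmt1 at 7.36 and 22.4, Dnmt3a at 14.1 and 7.04 and Tet3 at 4.09 and 13.3 TPM. Dppa3 (1.67 and 1.48), Dnmt3b (1.23 and 1.37), Dnmt3l (2.62 and 1.03) and Zfp57 (5.36 and 1.56) were lowest in sperm of all 7 stage means. The leukocyte list named above, none of its 4 genes under 1 TPM in both libraries, was higher in sperm replicate 1 than in replicate 2, as were Tet2, Dnmt3a, Dnmt3l and Zfp57, while Dnmt1, Tet1, Tet3 and Uhrf1 were higher in replicate 2, and the part of other cells in these values was not tested. The sperm long-read pool held 1 member transcript, of Uhrf1.

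The long-read pools held few transcript models of the members, and such models are collapsed and do not count reads. The number of members with at least 1 long-read transcript was 1 in sperm, 6 in the oocyte, 7 in the 1-cell, 4 in the 2-cell, 3 in the 4-cell, 4 in the 8-cell and 9 in the blastocyst pool, among 7034 to 8831 transcripts per pool. Dppa3 had the most models, 27 over 6 pools, and Tet2 had 1. The longest merged model was 91.8% as long as the longest annotated transcript for Dnmt3l, 107% for Dppa3 and 66.6% for Zfp57, but 15.3% for Tet3, 13.2% for Dnmt3b, 9.07% for Tet1 and 7.77% for Tet2. No merged transcript was assigned to the annotated copies Dnmt3c, Dnmt3l-ps1, Dnmt3a-ps1 or Dppa3-ps, so reads of such copies would have had no model of their own.

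The genes that most resembled each member over the 14 libraries are a description, since the libraries share the stages. Tet3 was most like Thsd7a (r = 0.992), Dppa3 like Snrpg (r = 0.976), Tet2 like Cat (r = 0.962), Uhrf1 like Spg20 (r = 0.956), Dnmt3b like Bcas2 (r = 0.955) and Tet1 like Wdr38 (r = 0.951). Dnmt3l was most like Ptbp1 (r = 0.946), Zfp57 like Tmem14c (r = 0.920), Dnmt1 like Adss (r = 0.902) and Dnmt3a like Ing3 (r = 0.898). Next in rank were Gnb4 and Ighg1 for Tet3, Anln and Sall4 for Dppa3, Actb and Sdc4 for Tet2, Laptm4b and Surf4 for Uhrf1, Jarid2 and Slc43a3 for Dnmt3b and Irak2 and Rrnad1 for Tet1. They were Pinlyp and Rfc3 for Dnmt3l, Nuf2 and Atg5 for Zfp57, Ncapg and Zfp57 for Dnmt1 and Cenpu and Ddx46 for Dnmt3a. Between members r was 0.892 for Dnmt1 with Zfp57, 0.847 for Tet3 with Uhrf1 and 0.820 for Dnmt3b with Dnmt3l, and -0.836 for Tet1 with Zfp57.

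Genes that work with the members were grouped in 7 lists by role, and called genes were found in both directions. Over all genes tested, 26.1% were higher and 6.19% lower from the 1-cell to the 2-cell stage, and 35.4% were higher and 18.0% lower from oocyte to blastocyst. The counts of each list stand beside these shares as a description. Of the 10 maintenance partners tested, 1 was higher and 1 lower from the 1-cell to the 2-cell stage and 2 were higher and none lower from oocyte to blastocyst, against 26.1% and 6.19%, and 35.4% and 18.0%, of all genes. Hells, a chromatin remodeller needed for CpG methylation of repeats, fell from 82.4 and 111 TPM to 10.6 and 30.3 TPM (log2 change -2.34, adjusted p = 0.0320), a call lost in 10 of 21 alternatives. The histone deacetylase Hdac1 rose from 3.01 and 0.892 to 27.8 and 52.3 TPM (3.83, adjusted p = 0.00171). Of the 13 imprint and repeat silencing partners tested, 5 were higher and 1 lower in that step, and 4 higher and 2 lower from oocyte to blastocyst, beside 26.1% and 6.19%, and 35.4% and 18.0%, over all genes. Ehmt2, a histone H3 lysine 9 methyltransferase, rose from 0.657 and 0.129 to 16.3 and 17.5 TPM (3.71, adjusted p = 0.000858). Zfp445, a further imprint-binding zinc finger protein, rose from 0.743 and 0.212 TPM in oocytes to 18.9 and 46.0 TPM in blastocysts (4.40, adjusted p = 0.000132). In these comparisons the list medians were 0.25 and 0.73 for the maintenance partners and 1.66 and 0.51 for the silencing partners, against 0.72 and 0.82 for all genes.

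In the base excision repair list, which includes the glycosylase that removes oxidised 5-methylcytosine, 2 of 13 were higher and 1 lower from the 1-cell to the 2-cell stage and 5 higher and 1 lower from oocyte to blastocyst, where all genes gave 26.1% and 6.19%, and 35.4% and 18.0%. Tdg, that glycosylase, was at 0.0179 and 0.150 TPM in oocytes, 1.61 and 4.46 in 8-cell embryos and 40.3 and 54.0 in blastocysts, and rose by 3.66 in the last step (SE 0.54, adjusted p = 0.00277), a call lost without 8-cell replicate 1 (adjusted p = 0.0921 for Tdg). Neil3, another glycosylase, fell from 103 and 212 TPM in 1-cell to 1.07 and 10.2 TPM in 2-cell embryos (-4.94, adjusted p = 0.000552). The list medians were 0.75 and 0.99. Of the 8 genes listed as methyl-CpG readers 3 were tested, and the listing does not show that Mbd3 binds methyl-CpG. Mbd3 rose from 10.1 and 13.1 to 145 and 28.6 TPM from the 1-cell to the 2-cell stage (2.39, limma adjusted p = 0.0354), where 26.1% of all genes were higher. The Mbd3 call was lost in 11 of 21 alternatives, among them without either 1-cell library or 2-cell replicate 1 (log2 change 1.24, adjusted p = 0.233 for Mbd3). From oocyte to blastocyst Mbd1 was higher and Mbd4 lower, calls lost in 7 and 14 of 21 alternatives, where 35.4% of all genes were higher and 18.0% lower. The medians of the 3 genes tested from this list were 1.27 and 1.66. None of the 3 tested binders of unmethylated CpG (Cxxc1, Kdm2b and Kmt2b) passed limma's adjusted threshold in any of the 6 comparisons, and 1 of them had an unadjusted p under 0.05 from oocyte to 1-cell and 0 in the other 5. Their medians were -0.29 and 0.03.

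Of the 15 genes of methyl donor supply, 5 were higher and 2 lower from the 1-cell to the 2-cell stage and 7 higher and 2 lower from oocyte to blastocyst, beside 26.1% and 6.19%, and 35.4% and 18.0%, of all genes, with list medians of 1.74 and 1.39 against 0.72 and 0.82. Bhmt, which remethylates homocysteine with betaine, rose from 5.40 and 3.57 TPM in 2-cell to 459.9 and 464 TPM in 4-cell embryos (6.42, SE 0.68, adjusted p = 0.00186), a call lost without either 4-cell library (adjusted p = 0.0771 and 0.0783 for Bhmt). Mat2b, a subunit of the S-adenosylmethionine synthetase, fell from 1699 and 4260.0 TPM in oocytes to 33.4 and 29.2 TPM in blastocysts (-6.38, SE 0.81, adjusted p = 2.80e-05). Of the 7 genes of alpha-ketoglutarate supply, the TET cosubstrate, 4 were higher from the 1-cell to the 2-cell stage, 5 were higher from oocyte to blastocyst and none was lower. All genes gave 26.1% and 35.4% higher and 6.19% and 18.0% lower, and the list medians were 2.38 and 3.88. With the spread weighted by stage, 3 of the 11 companion calls that the naming rule gave from the 1-cell to the 2-cell stage were lost (Hells, Cbx3 and Mbd3). When the 4 libraries of both stages were fitted alone 4 were lost (Hells, Hdac1, Mbd3 and Gadd45b). These alternatives were chosen for the companion genes after seeing the data. Idh2, the mitochondrial isocitrate dehydrogenase, was at 0.0336 and 0 TPM in oocytes and 87.3 and 232 in blastocysts (7.14, adjusted p = 8.77e-06). Psat1, an aminotransferase that yields alpha-ketoglutarate, rose from 0.299 and 0.178 in 1-cell to 38.6 and 97.7 TPM in 2-cell embryos (5.66, adjusted p = 0.000291).

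**Figure D4:**
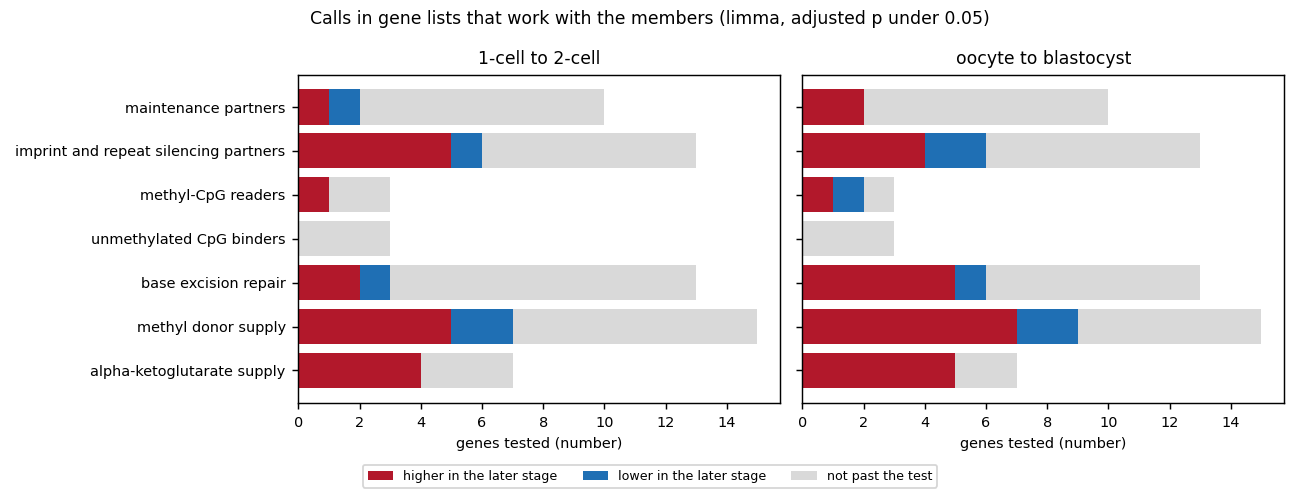
Number of tested genes of each list that were higher, lower or not past an adjusted p of 0.05, from the 1-cell to the 2-cell stage and from oocyte to blastocyst. The alpha-ketoglutarate list holds 4 and 5 higher genes of 7 and no lower one, where 26.1% and 35.4% of all genes were higher.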

How the data were processed

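The authors mapped PacBio reads of 7 stage pools to mm10, merged the long-read transcripts of all stages into 22612 and quantified 14 short-read libraries over them. The deposited values are TPM, transcript shares scaled to a fixed total, which keep no read counts. The study lists read totals per library, which were not used here, and no counting error was computed. Per the labels, GSNAP, STAR, Cufflinks and Salmon were used. The number of libraries limits the precision.

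Here merged transcripts were assigned to GENCODE vM21 genes by same-strand exon overlap and their TPM summed. Genes and transcripts at 1 TPM or more in at least 2 libraries were fitted on log2(TPM + 1) with limma 3.58.1 (R 4.3.3, trend in the prior variance) over the 12 oocyte to blastocyst libraries, with stage as the only term and 6 comparisons. P-values were Benjamini-Hochberg adjusted over all genes or transcripts of a comparison, two-sided, threshold 0.05. A fold on this scale understates changes of low genes. Sperm entered 1 alternative only. On data simulated with each stage's own spread, this fit recovered most of the larger changes in genes, few of the smaller ones, and made false calls, more of them from 1-cell to 2-cell than from oocyte to blastocyst. Tables were handled in Python 3.11.15 with pandas 2.3.3 and numpy 2.4.6, and figures drawn with matplotlib 3.10.9.

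The named genes are the 10 members, up to 2 called genes of largest absolute change per list and comparison, each member transcript with at least 5% of its gene at some stage, and the 3 genes most correlated with each member over the 14 libraries. Members and lists were chosen with earlier results of these data known. Alternatives changed the pseudocount (0.1), the minimum (5 TPM or none), the normalization, the libraries fitted and the weights, used multi-exon transcripts only, added a replicate block or left out 1 library. They were applied to the companion genes named after the data had been seen. A second deposited TPM per library, over the transcripts of its own stage, is given only where named as such.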

Additional observations from a re-analysis of the deposited data

How the results depend on the processing

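Of 51 changes of members and their transcripts recomputed under the alternatives, 1037 values in all, 854 kept direction and side of the threshold, 161 lost the call, 19 gained it and 3 changed sign, none of these 3 called: Dnmt1 from oocyte to blastocyst (0.057 without blastocyst replicate 1, from -1.08 to 0.057 over the libraries left out), Dppa3 from 1-cell to 2-cell (0.012 without 2-cell replicate 1, from -1.55 to 0.012) and Dppa3 from oocyte to blastocyst (0.58 without blastocyst replicate 2, from -2.43 to 0.58). From oocyte to 1-cell the 1 called member became 0 with no filter, when just the 4 libraries of the compared stages were fitted, with all 14 libraries and with the replicate block, and 0 to 1 with a library left out. From 1-cell to 2-cell the 5 became 3 with no filter, 1 with the 4 libraries, 1 with the spread weighted by stage and 3 with multi-exon transcripts, and 2 to 4 with a library left out. From 4-cell to 8-cell the 0 became 1 with quantile normalization, 3 with the 4 libraries and 5 with the weighted spread. It was 0 to 1 with a library left out, as it was from 2-cell to 4-cell. From oocyte to blastocyst the 3 became 1 with multi-exon transcripts, where Tet1, Tet2 and Tet3 have no value, and 3 to 6 with a library left out. From 8-cell to blastocyst the count was 0 under all alternatives run. The cause of these shifts was not tested.

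Of the member transcripts, the 3 called from oocyte to 1-cell became 1 with a pseudocount of 0.1, 1 with quantile normalization, 0 with the 4 libraries and 0 to 4 with a library left out. The 11 from 1-cell to 2-cell became 0 with the 4 libraries, 6 with the weighted spread and 6 to 11 with a library left out. The 0 from 2-cell to 4-cell became 1 at a minimum of 5 TPM, 1 with quantile normalization and 0 to 2 with a library left out. The 0 from 4-cell to 8-cell became 1 with a pseudocount of 0.1, 1 with quantile normalization, 3 with the 4 libraries, 5 with the weighted spread and 0 to 1 with a library left out. The 12 from oocyte to blastocyst became 6 with the 4 libraries and 6 to 14 with a library left out. The number of all genes called ran from 0 to 215 (main value 38), 1078 to 3815 (3228), 0 to 1704 (324), 0 to 3920 (168), 0 to 801 (300) and 4320 to 6208 (5345) over the alternatives, in the order of the comparisons. Same-numbered libraries deviated together in some pairs of stages and in opposite directions in others (r from -0.547 to 0.478, 5 of 15 pairs over 0.1). These mixed signs cannot tell whether the numbers mark batches shared between stages. With the replicate block 0, 4 and 3 members were called from oocyte to 1-cell, 1-cell to 2-cell and oocyte to blastocyst. For the 27 companion changes that the naming rule gave, recomputed in the same way by a choice made after seeing the data, none reversed. Of those from 1-cell to 2-cell, 3 of 11 were lost with the weighted spread and 4 with the 4 libraries, and of those from oocyte to blastocyst 2 and 1 of 12.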

Other observations

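Each short-read library had also been quantified over the long-read transcripts of its own stage alone, a second set of TPM that is relative to another set of transcripts and is therefore set beside the merged values without a test. For Tet1 the sets stood far apart in 4-cell embryos, where the single exon of 810 bases upstream in Tet1 was the only Tet1 transcript of the pool. It was at 173 and 260.1 TPM over the 4-cell transcripts and at 5.27 and 6.02 TPM over the merged ones, which also hold the last-exon Tet1 transcript at 28.8 and 32.0 TPM. In blastocysts the last-exon Tet1 transcript was at 13.4 and 2.69 TPM over the blastocyst transcripts and at 17.3 and 3.25 TPM over the merged ones.

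For Dnmt3l the single transcript of the 1-cell pool, 5 exons from 78055034, was at 25.5 and 10.7 TPM over the 1-cell transcripts, where the merged set gave the 13-exon form 32.4 and 12.3 TPM. In 8-cell embryos the 6-exon form was at 36.2 and 35.9 TPM over the own-stage and at 28.9 and 29.6 TPM over the merged transcripts. In blastocysts the 13-exon Dnmt3l transcript was at 13.4 and 2.55 TPM, a 10-exon one from 78050833 at 15.1 and 3.09 TPM and the 5-exon one at 15.9 and 6.75 TPM over the own-stage transcripts. The 18-exon Dnmt3a form in oocytes, at 12.2 and 79.6 TPM over the own-stage transcripts, was at 16.7 and 93.4 TPM over the merged ones, and the 12-exon form was at 0.00014 and 0 TPM there although it had been read in that pool.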
